A study of Mus musculus with 12 samples.

Results

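The 9 genes Clu, Anxa1, Anxa10, Cd44, Areg, Ereg, Il1rn, Il33 and Msln are genes of regenerative and fetal-like intestinal epithelium, and they were followed here out of 48526 gene rows. They were selected on the measured values: the list was drawn up because Anxa10 and Cd44 were higher in input RNA of double-knockout (DKO) than of control epithelium. The input values of these genes are therefore given as a description, without a test. Epithelium was released with EDTA from the upper (proximal) part of the small bowel of 4 adult female mice aged 3 months, per the extraction text of the labels, while the sample titles name the whole intestine. The 2 DKO animals carried an inducible loss of KAT2A and KAT2B and received 100 mg/kg tamoxifen intraperitoneally on 4 consecutive days. The 2 control animals received the same ethanol and corn oil vehicle without tamoxifen, so the knockout and the drug cannot be told apart. Cells of both groups were collected 2 days after the last injection. The line that drives the deletion and the alleles the controls carry are not given in the sources used here. Each animal gave 3 libraries: unselected input RNA, RNA pulled down with the antibody J2, and RNA pulled down with the antibody K1. Both antibodies recognise double-stranded RNA. The 12 libraries thus form 6 groups of 2, and the 3 libraries of an animal are not independent samples.

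When intestinal epithelium is damaged, its cells switch on genes that are otherwise active in the fetal gut and quiet in the adult. These genes include secreted growth factors of the epidermal growth factor (EGF) family, annexins, the hyaluronan receptor Cd44 and Clu, which marks a rare stem cell that appears after injury. The co-activators YAP and TAZ, acting with TEAD transcription factors, are known to drive much of this programme, and AP-1 factors often bind beside them. KAT2A and KAT2B are related lysine acetyltransferases that acetylate histones at active genes.

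Anxa10 and Il1rn were the only 2 of the 9 genes without a single count in either control input library, so their upstream sequences are shown. RefSeq promoters on GRCm38.p6 were found for 6 of the 9 genes, and Clu, Ereg and Msln had no entry in the table. The lines give the 250 bases before the RefSeq start of Anxa10 (chr8:62123194-62123443, minus strand) and before the first listed start of Il1rn (chr2:24336610-24336859, plus strand). They run 5′ to 3′ on the gene's strand, and capitals mark matches to the AP-1 motif TGANTCA.
Anxa10: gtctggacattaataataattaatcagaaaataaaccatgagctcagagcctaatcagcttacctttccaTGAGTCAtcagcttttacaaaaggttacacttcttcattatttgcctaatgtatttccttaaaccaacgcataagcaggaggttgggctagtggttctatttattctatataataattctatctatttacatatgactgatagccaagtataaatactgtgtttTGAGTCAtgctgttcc
Il1rn: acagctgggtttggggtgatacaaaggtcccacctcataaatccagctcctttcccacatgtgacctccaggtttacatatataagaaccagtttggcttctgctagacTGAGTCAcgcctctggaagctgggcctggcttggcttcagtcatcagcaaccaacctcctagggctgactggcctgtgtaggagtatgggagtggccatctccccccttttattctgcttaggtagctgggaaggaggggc
The Anxa10 window held 2 AP-1 matches, at positions -180 to -174 and -16 to -10 from the start. The Il1rn window held 1 match, at -141 to -135. No other listed promoter of the 6 genes, including those of Anxa1, Cd44, Areg and Il33, held an AP-1 match. Over 32851 promoters of 300 bases, searched on both strands, 7.81% held at least 1 match and 0.460% held 2 or more. The TEAD motif GGAATG, held by 14.7% of all promoters, was found in neither of these 2 windows, once in the promoter of Anxa1, once in each of 2 promoters of Il33 and once in the last listed promoter of Il1rn. No promoter of the 6 genes held the interferon response core GAAANNGAA, which 8.56% of all promoters held. These letters describe the windows and say nothing of binding.

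The libraries differed in depth by group. Input libraries held 10307281 to 11474107 counts in genes and control pulldowns 13308021 to 16139531. DKO pulldowns held 2220291 to 5826361, so their values are the least precise. In the DKO pulldowns the 10 most abundant genes took 24.7% to 33.6% of counts, against 6.57% to 7.67% in control pulldowns. Reads aligned to several places reached 46.7% of the listed reads in DKO K1, against 6.56% at most in control K1. Kat2a counted 222 and 228 in control input and 84 and 148 in DKO input, and Kat2b 359 and 343 against 118 and 114. Both targeted genes were thus lower in both DKO animals than in both controls, and transcripts of both remained. The 8 epithelial markers together held 6295 to 7643 CPM (counts scaled to a common library total) in all 4 input libraries, while 5 markers of intestinal stem cells held 443 to 447 CPM in control input and 85.2 to 127 CPM in DKO input, with 4 of the 5 called lower by edgeR. Nothing in the labels ties a group to a day or a run.

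In input, the RNA of 8 of the 9 genes was clearly more abundant in both DKO animals than in both controls, and the change ran from 3.56-fold for Cd44 to at least 107-fold for Anxa10. Msln was close to its detection limit in input. Of the 15088 genes tested in input, 18.8% were called higher in DKO and 17.1% lower, and 8 of the 8 members tested were called higher; since this contrast chose the list, nothing is read from that count. Msln was not tested because its counts were too low. In bulk tissue, more cells of one type and more RNA per cell cannot be told apart. The plot of CPM by library shows all values.

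**Figure D1:**
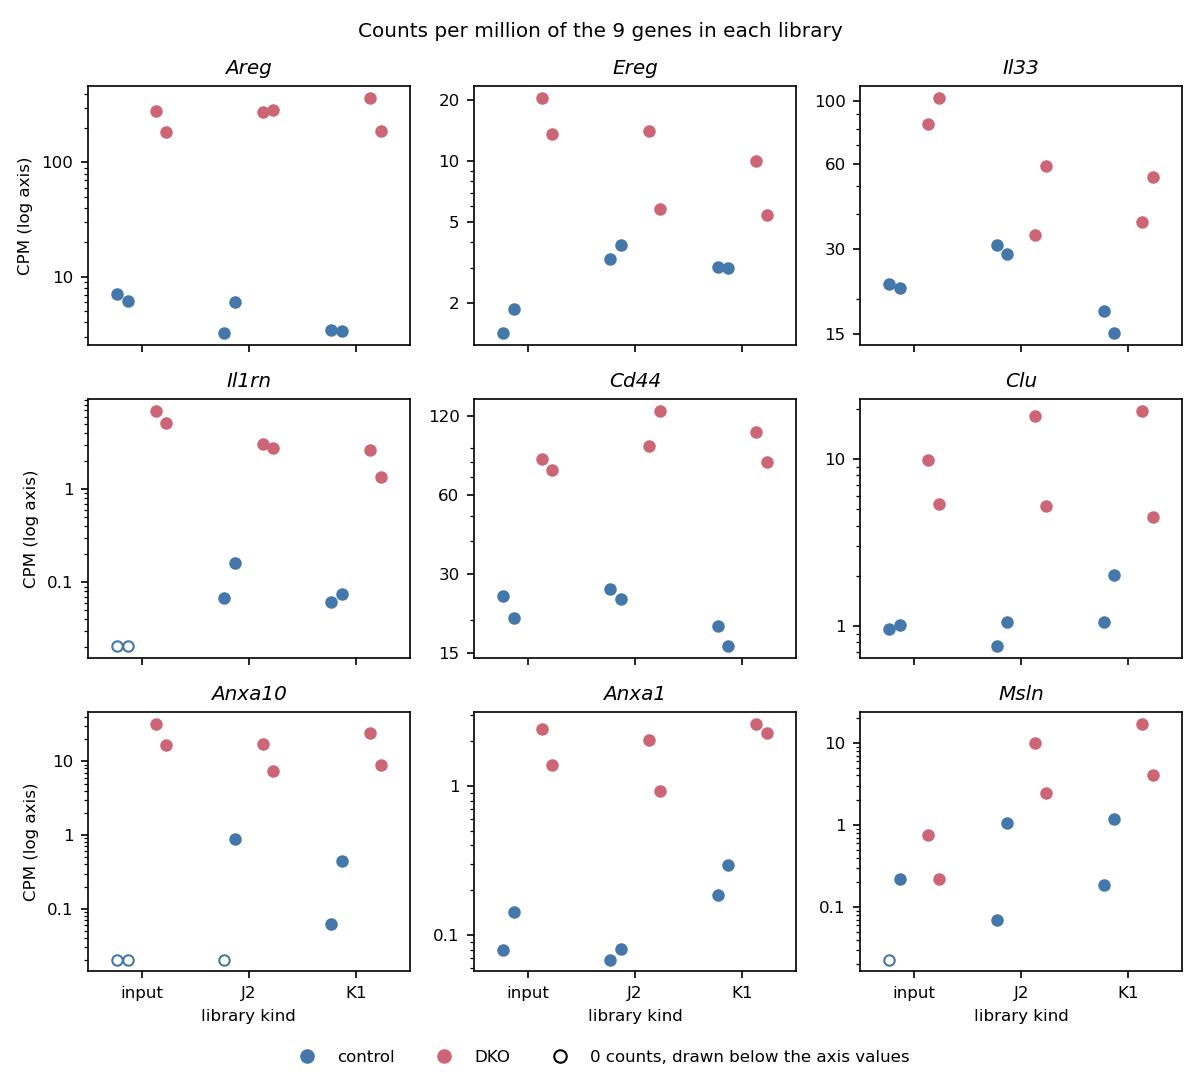
CPM (log axis) of the 9 genes in each of the 12 libraries, by library kind; each point is 1 library, blue for control and red for DKO, and open circles mark 0 counts. The DKO points lie above the control points in each panel and kind, by the least for Msln in input (0.220 against 0.216 CPM) and for Il33 in J2 (33.6 against 31.1 CPM).

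Areg encodes amphiregulin, an EGF-family growth factor that activates the EGF receptor. Its input values were 7.07 and 6.12 CPM for the controls against 281 and 183 CPM for DKO, with 89 and 85 counts against 3370 and 2493. The group means were 6.59 ± 0.675 and 232 ± 69.0 CPM (SD, n = 2), and the log2 fold change was 5.17 (SE 0.249). Ereg encodes epiregulin, a related growth factor whose gene lies beside Areg on chromosome 5 (Ereg at chr5:91074622-91093646 and Areg at chr5:91139599-91148432, both on the plus strand, GRCm38). It rested on fewer counts, 18 and 26 in control input and 246 and 185 in DKO input. Its means were 1.65 ± 0.312 and 17.0 ± 4.88 CPM (SD, n = 2), a log2 fold change of 3.39 (SE 0.296). For both neighbours the first DKO animal was the higher of the pair. An antisense gene, Gm19610, overlaps 3.4% of the Ereg transcript, and counts made without strand do not separate the 2.

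Il33 (chr19:29925114-29960718, plus strand) encodes a nuclear cytokine of the interleukin-1 family that is released from injured barrier cells. Input values were 22.6 and 21.9 CPM for the controls against 82.9 and 103 CPM for DKO, with 284 and 304 counts against 996 and 1407. Here the second DKO animal was the higher. The log2 fold change of Il33 was 2.11 (SE 0.148). Il1rn (chr2:24336853-24351494, plus strand) encodes the antagonist that blocks the interleukin-1 receptor. It had 0 counts in both control input libraries and 83 and 70 counts in DKO input, or 6.91 and 5.14 CPM. Against a floor of 3 counts in each control library, Il1rn was at least 26.5-fold higher in DKO.

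Cd44 (chr2:102811141-102901665, minus strand) encodes a surface receptor for hyaluronan. It was well expressed in control input, with 312 and 284 counts, and reached 985 and 1018 in DKO. Its means were 22.6 ± 3.08 and 78.3 ± 5.15 CPM (SD, n = 2), a log2 fold change of 1.83 (SE 0.140), the smallest of the 8 members tested. Leukocytes also express Cd44. The summed level of 8 leukocyte markers was 49.8 to 58.2 CPM in control input and 35.2 to 40.5 CPM in DKO input. Of the 6 tested, Csf1r, a macrophage receptor, was called higher in DKO input (log2 fold change 2.74, edgeR adjusted p = 0.0101), and the T cell genes Cd3e (-0.97) and Cd8a (-0.73) were called lower. The part of leukocytes in the Cd44 input values was not tested.

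Clu (chr14:65968483-65981547, plus strand) encodes clusterin, a secreted chaperone. The control inputs had 12 and 14 counts of it, the DKO inputs 119 and 73. The means of Clu were 0.980 ± 0.0382 and 7.63 ± 3.22 CPM (SD, n = 2), and the log2 fold change was 2.98 (SE 0.392). Both DKO animals lay above both controls, and the first, at 9.91 CPM, lay above the second, at 5.36 CPM.

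The annexins bind membrane phospholipids in the presence of calcium. Anxa10 (chr8:62057042-62123150, minus strand), which is known from stomach epithelium, had no counts in either control input library. The DKO libraries had 383 and 229 counts, or 31.9 and 16.8 CPM. Against 3 counts per control library, Anxa10 was at least 107-fold higher. Of 6 markers of the stomach surface, Tff1 was at 0 in all 12 libraries. The 6 together summed to 1.27 and 3.24 CPM for the controls against 1.17 and 0.220 for DKO in input. Their sums were higher in both DKO animals in the pulldowns, with 0.137 and 0.809 against 1.78 and 0.923 CPM with J2 and 0.493 and 1.79 against 2.61 and 2.71 CPM with K1. The stomach marker Gkn3 was called lower in DKO input, at 16 and 42 counts against 2 and 2 (edgeR adjusted p = 0.00529). The part of stomach cells in the Anxa10 values was not tested. Anxa1 (chr19:20373428-20390944, minus strand), which has anti-inflammatory actions, had 1 and 2 counts in control input and 29 and 19 in DKO. The ratio of pooled scaled counts was 16.5 (95% exact counting interval 5.33 to 83.0). Intervals and floors cover counting error only. Of 5 markers of squamous epithelium, Krt4 and Trp63 were at 0 everywhere. The 5 together summed to 0.159 and 0 CPM for the controls against 1.5 and 0.954 for DKO in input. With J2 the sums were 0 and 0.162 against 5.09 and 1.54 CPM, and with K1 0.185 and 0 against 3.56 and 0.452 CPM. Among them Krt5, a basal cell keratin, had 0 counts in all 6 control libraries. The DKO libraries held 17 and 12 counts of Krt5 in input, 15 and 3 with J2 and 12 and 1 with K1. With 0 control counts, Krt5 passed the count filter through its DKO libraries alone. Its calls in input and in J2 therefore carry no weight of their own. The part of squamous cells in the Anxa1 and Anxa10 values was not tested.

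Msln (chr17:25748613-25754378, minus strand) encodes mesothelin, a surface protein best known from the mesothelial lining of the body cavity. In input it counted 0 and 3 in control and 9 and 3 in DKO. The second control and the second DKO library thus had equal raw counts. The ratio of pooled counts was 4.13 (95% exact counting interval 1.12 to 22.8).

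Per kilobase of exon, the order of the input levels in DKO was Areg (191 ± 56.8 CPM per kb, SD, n = 2), Il33 (32.3 ± 4.98), Cd44 (11.6 ± 0.761), Anxa10 (10.6 ± 4.65), Ereg (4.12 ± 1.18), Clu (2.22 ± 0.936), Il1rn (1.09 ± 0.226), Anxa1 (0.654 ± 0.248) and Msln (0.158 ± 0.122). Neighbours whose spreads met were Cd44 and Anxa10, Ereg and Clu, Clu and Il1rn, and Il1rn and Anxa1. In control the order began with Il33 (7.70 ± 0.169 CPM per kb) and Areg (5.43 ± 0.555), followed by Cd44 (3.34 ± 0.454), Ereg (0.400 ± 0.0755) and Clu (0.285 ± 0.0111), and the other 4 genes had at most 3 counts in each control library. Areg therefore took the place of Il33 at the head of the list. No test was made of these orders.

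The pulldown libraries are separate libraries of the same 4 animals, and DKO was compared with control within each antibody. Anxa10 and Cd44 were chosen on the input of these same animals, so their pulldown values and calls are not independent of that choice. In K1 all 9 genes were called higher in DKO, and in J2 4 of the 8 tested were, namely Areg, Cd44, Clu and Il1rn. Over all genes, 13.1% of 12888 were called higher in K1 and 13.9% lower, and 6.04% of 13181 were called higher in J2 and 6.17% lower (edgeR quasi-likelihood test, Benjamini-Hochberg adjusted p under 0.05). Genes with little RNA in control passed the count filter through their DKO libraries. The calls of such genes, and the counts of members called, therefore carry no weight of their own. Of all genes called, 52.4% were higher in input, 49.5% in J2 and 48.6% in K1. Without TMM scaling these shares were 42.1%, 32.6% and 27.4%. Each of the 9 genes was higher in DKO in each kind in which it was tested, under both scalings. In both antibodies the number of members called changed with the animal left out, as did the number of all genes called. Over the main and alternative settings, the J2 value ran from 5.56 to 6.45 for Areg and from 1.93 to 2.40 for Cd44. For Clu it ran from 2.61 to 4.40. In K1 these ranges were 6.04 to 6.91 for Areg, 2.21 to 2.73 for Cd44 and 1.83 to 3.85 for Clu.

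With J2, Areg counted 47 and 75 in the controls against 1097 and 941 in the DKO animals, although the DKO libraries were shallower. In CPM this was 3.22 and 6.07 against 279 and 289, with no overlap. The log2 fold change of Areg was 6.0 in J2 (SE 0.547, edgeR adjusted p = 0.0287) and 6.52 in K1 (SE 0.414, adjusted p = 0.00157). In K1 the values were 3.45 and 3.35 CPM in control and 368 and 189 CPM in DKO.

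Ereg, in contrast, counted 48 and 48 with J2 in the controls against 55 and 19 in the DKO animals. Scaled to the library, this was 3.29 and 3.88 CPM against 14.0 and 5.85 CPM. The log2 fold change of Ereg was 1.51 in J2 (SE 0.537, edgeR adjusted p = 0.114), which was not called. In K1 it was 1.56 (SE 0.445, adjusted p = 0.0391), from 3.02 and 2.98 CPM in control to 9.97 and 5.43 CPM in DKO. Without TMM scaling the K1 value of Ereg was 1.16 with an adjusted p of 0.0979. The DKO libraries lay above the control libraries in both antibodies, but by less than in input.

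Il33 showed the smallest J2 change. Its J2 values were 31.1 and 28.8 CPM for the controls against 33.6 and 59.1 CPM for DKO, a log2 fold change of 0.71 (SE 0.419, edgeR adjusted p = 0.272). The first DKO library was nearly level with the controls. In K1 Il33 went from 18.1 and 15.1 CPM to 37.5 and 53.8 CPM, a log2 fold change of 1.65 (SE 0.332, adjusted p = 0.0131). With J2, Il1rn had 1 and 2 counts in the controls against 12 and 9 in the DKO animals. The ratio of pooled counts of Il1rn was 26.3 (95% exact counting interval 7.85 to 138). In K1, 1 and 1 counts stood against 11 and 3, a ratio of 32.3 (7.42 to 293). Il1rn passed the count filter through its DKO libraries, so its calls in both antibodies carry no weight of their own. The second DKO K1 library held so few counts of Il1rn that it lay at the floor.

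Cd44 had 176 counts or more in each library. The J2 libraries gave 26.2 and 24.0 CPM for the controls against 92.2 and 125 CPM for DKO. Fitted log2 fold changes of Cd44 were 2.19 in J2 (SE 0.369, edgeR adjusted p = 0.0324) and 2.58 in K1 (SE 0.269, adjusted p = 0.00216). In K1 control gave 19.0 and 15.9 CPM and DKO 104 and 79.6 CPM, again without overlap. Without TMM scaling the J2 value of Cd44 was 2.17 with an adjusted p of 0.0572. The leukocyte marker sum was 41.3 to 46.7 CPM in control J2 and 48.9 to 76.9 CPM in DKO J2, and 35.6 to 38.9 against 44.8 to 48.9 CPM in K1. Its part in the Cd44 pulldown values was not tested.

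Clu rose in both antibodies, and most in the first DKO animal. The J2 values were 0.754 and 1.05 CPM for the controls against 18.3 and 5.23 CPM, and the K1 values 1.05 and 2.01 against 19.5 and 4.52 CPM. Fitted log2 fold changes of Clu were 3.72 in J2 (SE 0.726, edgeR adjusted p = 0.0394) and 3.19 in K1 (SE 0.670, adjusted p = 0.0150). The second DKO library of Clu rested on 17 counts in J2 and 10 in K1.

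Anxa10 was absent from control input but not from all control pulldowns. The control pulldowns counted 0 and 11 with J2 and 1 and 6 with K1, and the DKO pulldowns 68 and 24 with J2 and 103 and 20 with K1. The second control animal therefore had 11 and 6 counts in its pulldowns with 0 in its input. The log2 fold change of Anxa10 was 6.24 in K1 (SE 0.778, edgeR adjusted p = 0.00330) and 4.85 in J2 (SE 1.26, adjusted p = 0.0620), the latter not called. With K1, Anxa1 had 3 and 4 counts in the controls against 11 and 5 in the DKO animals. In CPM, 0.185 and 0.298 stood against 2.61 and 2.26 for Anxa1. No fold is given for Anxa1 in K1, since its control libraries held so few counts. Anxa10 passed the count filter through its DKO libraries, and its fitted values rest on few control counts as well. Over the alternative settings named below they ran from 3.76 to 9.47 in J2 and from 5.34 to 7.87 in K1. In J2 Anxa1 was not tested, with 1 and 1 counts against 8 and 3 and a ratio of 20.7 (95% exact counting interval 4.51 to 192).

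With J2, Msln counted 1 and 13 in the control animals and 39 and 8 in the DKO animals. With K1 the controls had 3 and 16 and the DKO animals 71 and 9. In CPM, control gave 0.0686 and 1.05 in J2 and 0.185 and 1.19 in K1, and DKO gave 9.93 and 2.46 in J2 and 16.9 and 4.07 in K1. For Msln the log2 fold change was 4.17 in K1 (SE 0.880, edgeR adjusted p = 0.0152) and 3.52 in J2 (SE 1.15, adjusted p = 0.0956). Over the alternative settings the value of Msln ran from 2.86 to 5.84 in K1 and from 2.27 to 6.15 in J2. Markers of fibroblasts and smooth muscle moved with it. With J2 the 9 markers together reached 3.02 and 21.5 CPM in the controls and 175 and 24.3 in the DKO animals, and with K1 2.96 and 41.0 against 206 and 76.9. Among them, 5 of the 9 reached 10 counts in some library. Their input sums were 1.27 and 4.96 CPM in the controls against 5.41 and 3.96 CPM. The 5 mesothelial markers other than Msln summed to 3.5 and 5.18 CPM for the controls against 8.82 and 8.59 for DKO in input. They gave 3.29 and 5.26 against 4.33 and 3.08 CPM with J2, and 6.23 and 5.36 against 10.9 and 1.81 CPM with K1. One of them, Upk1b, was called higher in DKO input (log2 fold change 1.07, edgeR adjusted p = 0.0133). The part of these cells in the Msln values was not tested.

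**Figure D2:**
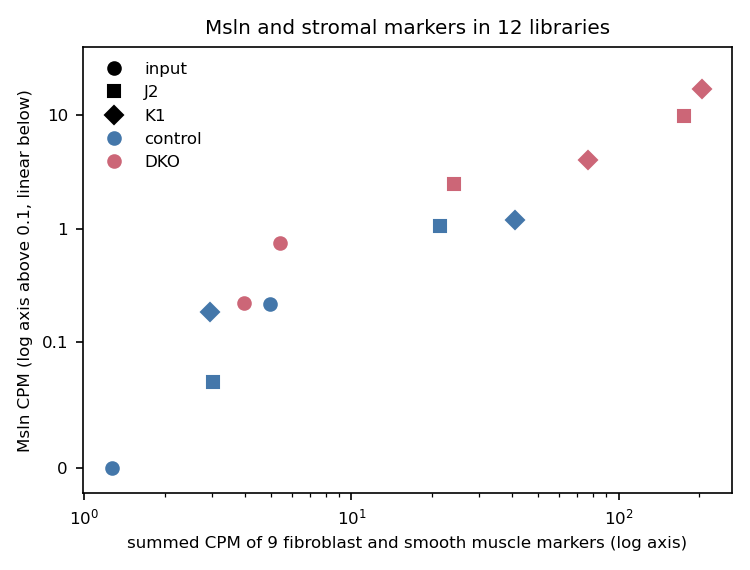
Msln (CPM, log axis above 0.1 and linear below) against the summed CPM of 9 fibroblast and smooth muscle markers (log axis) in the 12 libraries; the shape gives the library kind and the colour the genotype. The first DKO animal has the highest marker sums in its pulldowns (175 CPM in J2, 206 in K1) and the highest Msln values (9.93 and 16.9 CPM).

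**Figure D3:**
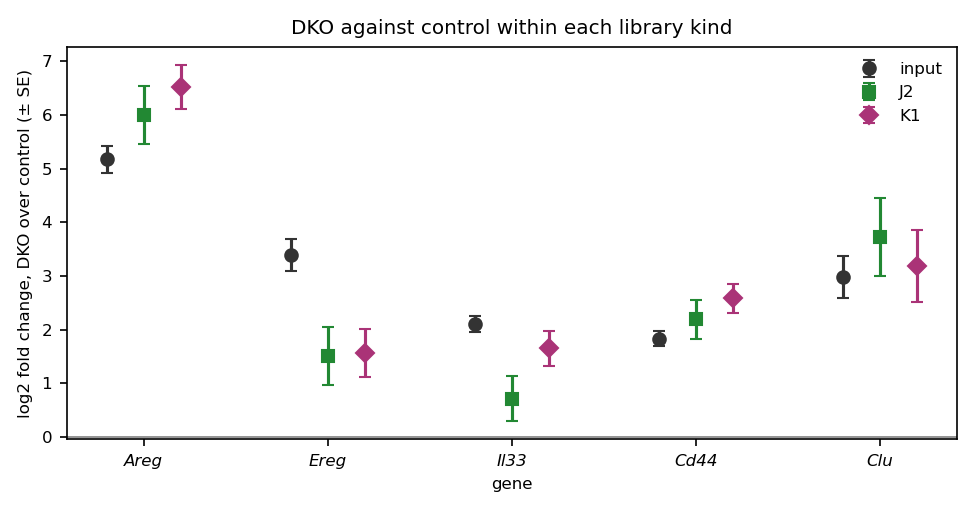
Log2 fold change of DKO over control (points, bars ± SE from edgeR, 2 against 2 libraries) in input, J2 and K1 for the 5 members with more than 3 counts in each control library. Areg and Cd44 have their highest values in K1 (6.52 and 2.58), and Ereg and Il33 their highest in input (3.39 and 2.11).

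To set each pulldown beside the input of the same animal, pulldown was compared with input within each genotype. Each such comparison is relative to the other genes of the library, and no spike-in is described, so the total amount of double-stranded RNA is not measured. None of the 9 genes was called in J2 against input in control with edgeR, while 29.8% of 15923 genes were. At an unadjusted p under 0.05 there were 2 of 9, and DESeq2 called 0. With the animal as a block Anxa10 was called (edgeR adjusted p = 0.0221), on 0 and 11 counts in control J2 and 0 in input. In K1 against input in control Areg alone was called, and 39.8% of 15908 genes were. In DKO, Il33 and Msln were called in J2, where 25.7% of all genes were, and Il33, Il1rn, Ereg and Msln in K1, where 35.6% were. These calls depended on single animals, as did the calls over all genes, so sizes over the main and alternative settings are given. In DKO K1, Il33 ran from -1.42 to -1.04 and Il1rn from -2.07 to -1.49. Ereg there ran from -1.52 to -1.10 and Msln from 3.99 to 4.50. In control J2, Ereg ran from 0.74 to 1.22 and Il33 from 0.06 to 0.50. In control K1, Areg ran from -1.26 to -0.95 and Cd44 from -0.68 to -0.38. Ereg in control K1 ran from 0.55 to 1.02 and Il33 from -0.72 to -0.37.

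Areg was lower in K1 than in input of control animals, by a log2 value of -1.03 (SE 0.361, edgeR adjusted p = 0.0435). The same-animal values of Areg, K1 minus input in log2 CPM, were -0.99 and -0.83 in control. In DKO they were 0.39 and 0.05, and the fitted value of 0.19 (SE 0.313, adjusted p = 0.566) was not called. With TMM scaling the 2 controls lay below 0 and the 2 DKO animals above it. Without that scaling the fitted DKO value of Areg was -0.15 and not called, so its side of 0 depended on the scaling.

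Ereg moved the other way. Its same-animal J2 minus input values were 1.10 and 0.98 for the controls against -0.54 and -1.19 for DKO. For K1 the controls gave 0.98 and 0.62 and the DKO animals -1.02 and -1.29. In DKO the K1 value of Ereg was lower than input by -1.16 (SE 0.337, edgeR adjusted p = 0.0231). In control the fitted values of Ereg, 1.11 in J2 (SE 0.462, adjusted p = 0.103) and 0.77 in K1 (SE 0.366, adjusted p = 0.118), were not called. Both control animals thus had more Ereg in the pulldown share than in input, and both DKO animals less.

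Il33 was under-represented in DKO pulldowns. The J2 minus input values were -1.30 and -0.80 in DKO and 0.46 and 0.39 in control. In the fit, Il33 in DKO was -0.98 in J2 (SE 0.298, edgeR adjusted p = 0.0445) and -1.12 in K1 (SE 0.238, adjusted p = 0.00588). Without TMM scaling the J2 value of Il33 was -1.21 with an adjusted p of 0.105. In control K1 the Il33 value was -0.50 (SE 0.235, adjusted p = 0.118; with the animal as a block adjusted p = 0.0472). Il1rn was also lower in DKO K1 than in DKO input, by -1.58 (SE 0.450, adjusted p = 0.0240), with same-animal values of -1.34 and -1.78.

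The same-animal J2 values of Cd44 were 0.08 and 0.23 for the controls against 0.17 and 0.74 for DKO, and the K1 values -0.38 and -0.36 against 0.35 and 0.09. Those of Clu spread from -0.27 to 0.88 in J2 and from -0.24 to 0.96 in K1, with the groups overlapping. None of the fitted values of Cd44 and Clu against input was called. Without TMM scaling Cd44 in control K1 was, at -0.68 (edgeR adjusted p = 0.0204), and its DKO K1 value was then -0.17 and not called.

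Msln was the only one of the 9 genes called higher than input in the DKO pulldowns. In DKO its log2 value over input was 3.73 in J2 (SE 1.04, edgeR adjusted p = 0.0331) and 4.44 in K1 (SE 0.867, adjusted p = 0.00405). Without TMM scaling the J2 value of Msln was 3.21 and no longer called (edgeR adjusted p = 0.0583). The same-animal values of Msln were 3.42 and 2.67 in DKO J2 and 4.17 and 3.36 in DKO K1. In control they were 0.43 and 1.60 in J2 and 0.96 and 1.75 in K1, on 0 and 3 input counts. The difference of Msln enrichment between the genotypes was not called in either antibody. The DKO input libraries held only 9 and 3 counts of Msln. Of the fibroblast and smooth muscle markers 4 were tested, the fibroblast genes Col1a1, Col1a2, Col3a1 and Dcn. In DKO 3 of them were called higher than input in J2, beside 12.2% of all genes, and 3 in K1, beside 14.6%. In control 0 were called higher in J2, beside 15.2% of all genes, and 2 in K1, beside 19.7%. In control, Msln was not called in K1 (edgeR adjusted p = 0.193), and with the animal as a block it was (adjusted p = 0.0288). Anxa10 and Anxa1 were not called in DKO in either antibody, and Anxa10 in control K1 was called with that block (adjusted p = 0.0206), on 1 and 6 counts against 0 in input.

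**Figure D4:**
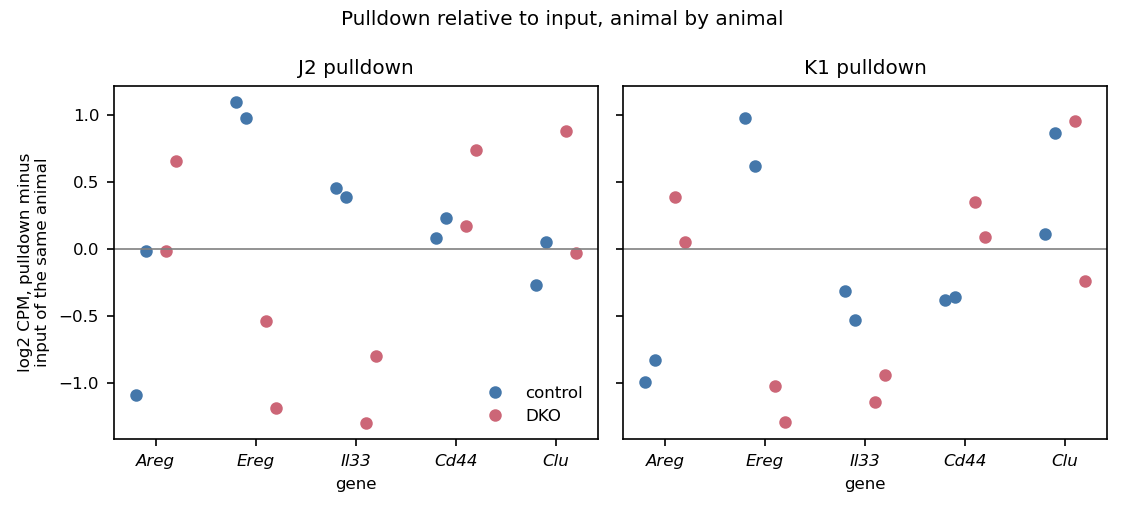
Pulldown minus input of the same animal in log2 CPM (prior count 2), for J2 on the left and K1 on the right, in the 5 members with input above the floor; each point is 1 animal, blue for control and red for DKO, and the grey line marks equality. Ereg lies above the line in both controls and below it in both DKO animals for J2 (1.10 and 0.98 against -0.54 and -1.19) and for K1.

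The difference of these enrichments between genotypes was tested as an interaction. It holds the input contrast that chose Anxa10 and Cd44 as one of its parts, so it is not independent of the choice. None of the 9 genes was called in J2, where 2.71% of 15923 genes were, and none in K1, where 5.47% of 15908 were. Calls with 1 animal left out changed for the members and for all genes alike, so sizes are given. Over the main and alternative settings, the K1 difference ran from -2.23 to -1.78 for Ereg and from 0.94 to 1.37 for Areg. The J2 difference ran from -2.30 to -1.64 for Ereg, from -1.72 to -1.22 for Il33 and from 0.30 to 1.28 for Areg. At an unadjusted p under 0.05 edgeR gave 4 of 9 in J2 and 3 in K1, and DESeq2 called 1 in each (Il33 in J2 and Ereg in K1). Ereg came nearest, with -1.93 in K1 (SE 0.498, edgeR adjusted p = 0.0506) and -1.85 in J2 (SE 0.629, adjusted p = 0.123). With the animal as a block Ereg in K1 was -2.0 (adjusted p = 0.00884). Areg differed in the opposite direction, by 1.22 in K1 (SE 0.478, edgeR adjusted p = 0.160), or 1.17 with the animal block (adjusted p = 0.0361), and by 0.83 in J2 (SE 0.526, adjusted p = 0.347). The 2 neighbouring growth factor genes thus had differences of opposite sign in both antibodies. The third call with the animal block, Anxa10 in K1 (adjusted p = 0.0338), rests on a control input of 0 counts, for which no size is given.

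For Il33 the difference of enrichment was -1.41 in J2 (SE 0.420, edgeR adjusted p = 0.0944) and -0.63 in K1 (SE 0.333, adjusted p = 0.287). For Cd44 it was 0.35 in J2 (SE 0.355, adjusted p = 0.567) and 0.61 in K1 (SE 0.301, adjusted p = 0.256). For Clu it was 0.79 in J2 (SE 0.886, adjusted p = 0.601) and 0.14 in K1 (SE 0.885, adjusted p = 0.949). The standard errors of Clu allow differences of either sign. Misses of the threshold do not show that the enrichments were equal.

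Lists of related genes place the 9 in their pathways, and they too were drawn up with earlier results known. Their genes with little RNA in control could pass the count filter through the DKO libraries alone. The counts of list genes called therefore carry no weight of their own. Among 7 other EGF-family ligands, 5 were tested in input, of which Btc, Hbegf and Tgfa were called higher and Nrg4 lower, beside 18.8% of all genes tested called higher and 17.1% lower. Btc, a ligand gene on the same chromosome as Areg, counted 29 and 44 in control input and 248 and 206 in DKO, a log2 fold change of 2.74 (SE 0.257). Hbegf had log2 fold changes of 0.77 in input, 1.72 in J2 and 1.56 in K1, and was called in all 3 kinds (edgeR adjusted p = 0.0085, 0.036 and 0.00697). Nrg4 went from 59 and 107 counts to 23 and 15, a log2 fold change of -2.01, and 9.6% of its transcript is shared with Fbxo22. The median of the 5 was 0.58, against 0.00 over all genes tested.

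Of the EGF-family receptors and feedback inhibitors, 4 of 9 tested were called higher in input and 4 lower, against that same background of 18.8% and 17.1%. Spry4, an inhibitor that growth factor signalling induces, went from 5 and 8 counts to 183 and 237. Its log2 fold change was 5.07 in input, 4.28 in J2 and 4.20 in K1, called in each. Dusp6, a phosphatase that dampens ERK signalling, was higher by 1.91 in input and 1.75 in K1, and Errfi1, an inhibitor of the EGF receptor, by 1.41 and 0.78. The receptor Egfr was called higher as well (1.36), and Erbb2 (-0.95), Erbb3 (-0.46), Lrig1 (-0.81) and Spry2 (-0.81) were called lower. Egfr and these last 4 genes are named because they complete the counts.

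Of the other annexins, 5 of 9 tested were called higher in input, beside 18.8% of all genes, and none lower, with a median log2 fold change of 0.94. Anxa5 went from 30 and 30 counts to 360 and 252 (log2 fold change 3.45) and Anxa3 from 18 and 21 to 190 and 146 (3.20). Anxa3 was also called in J2 (4.80) and K1 (4.38), and Anxa5 in K1 (3.39). Anxa7, with 724 and 830 counts in control, was higher by 1.33.

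Of 22 ligands, receptors and regulators of the interleukin-1 family, 9 had enough counts in input, and 4 were called higher (18.8% of all genes) and none lower. Il18bp, which encodes a secreted protein that captures interleukin-18, went from 297 and 199 counts to 1953 and 1798. Its log2 fold change was 3.00 in input, 2.31 in J2 and 3.51 in K1, called in each. Sigirr, an inhibitory receptor of the family, was called in each kind too (0.88, 2.12 and 1.81). Myd88 (1.36) and Irak2 (0.92), which pass the signal on inside the cell, completed the 4 in input, and 9.1% and 10.7% of their transcripts are shared with other genes.

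Of the 9 hyaluronan and Cd44 partners tested in input, Hyal2 (0.49) was called higher, beside 18.8% of all genes. Hmmr (-1.26), Esrp1 (-0.65) and Esrp2 (-0.46) were called lower, beside 17.1% of all genes, and 5 were not called. Esrp1 and Esrp2 encode epithelial splicing factors known to act on Cd44 transcripts. Esrp1 counted 1051 and 1152 in control input and 638 and 681 in DKO. Counts per gene do not separate the Cd44 splice forms.

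Of the YAP and TEAD pathway, 4 of 13 tested were called higher in input and none lower, against 18.8% and 17.1% of all genes. Wwtr1, which encodes TAZ, was higher by 2.09 and Tead1 by 1.59, and neither was called in J2 or K1. Tead4 was called in all 3 kinds, by 2.76 in input, 2.73 in J2 and 2.61 in K1. Axl, a receptor kinase gene often used as a readout of YAP, had 2 and 0 counts in control input and 18 and 14 in DKO. Amotl2, an inhibitor of YAP and TAZ, had a log2 value of -0.51 that was not called (edgeR adjusted p = 0.0628).

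Of 25 further regenerative and fetal-like genes, 18 were tested in input and 17 were called higher (18.8% of all genes), none lower, with a median of 2.76. In J2 6 of 16 were called higher, beside 6.04% of all genes, and in K1 11 of 15, beside 13.1%, with medians of 2.41 and 2.39, against 0.03 and -0.02 over all genes. Ly6a, the gene of the fetal-like surface marker Sca-1, went from 17 and 9 counts to 1698 and 1859, a log2 fold change of 7.17 in input, 4.23 in J2 and 6.29 in K1. Ly6d had 0 and 1 counts in control input and 429 and 229 in DKO, so it passed the count filter through its DKO libraries. Plaur, the urokinase receptor, was higher by 4.08 in input, 4.88 in J2 and 4.86 in K1. The plot of the lists shows each tested gene in input.

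**Figure D5:**
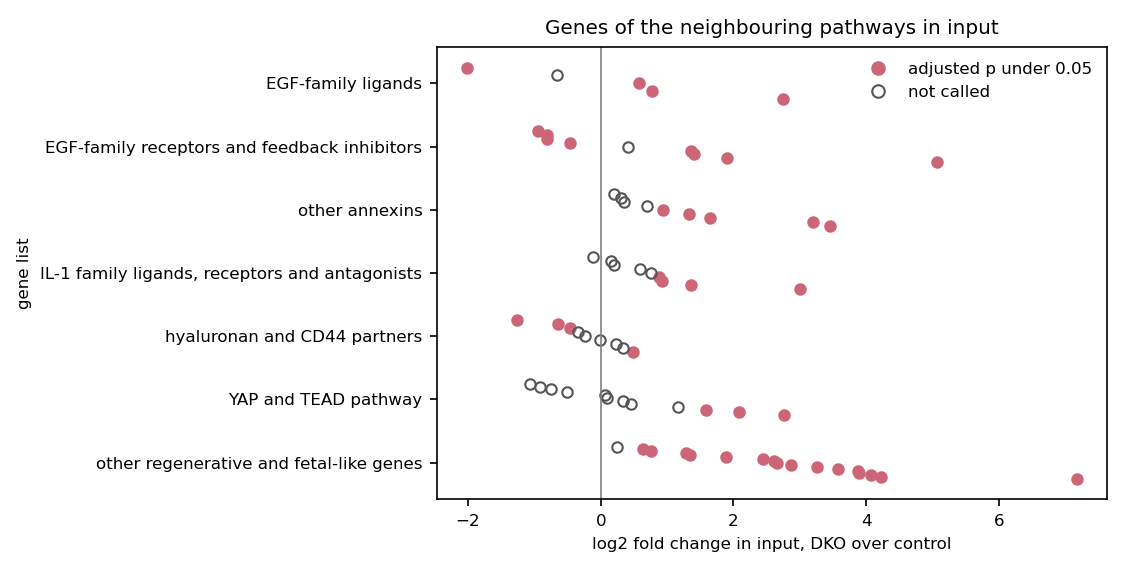
Log2 fold change in input, DKO over control, of the tested genes of 7 lists, 1 row per list; filled red points were called at an edgeR adjusted p under 0.05 and open points were not, and Axl and Ly6d, with at most 3 counts in each control library, are left out. The row of other regenerative and fetal-like genes lies to the right of 0 (median 2.76 with Ly6d included), and the hyaluronan row around it (median -0.23).

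The genes whose pattern over the 12 libraries was most like that of Anxa10 and Cd44 were found by Pearson correlation of log2 CPM among 9378 genes. Those ranked had a mean of at least 50 counts and a symbol other than the numbered Gm and the Rik kinds. Since the libraries share animals, depth and genotype groups, these values are descriptions. For Anxa10 they were Spry4 (0.978), Gml2 (0.977), Trim30a (0.977), Hmox1 (0.975) and Apol9b (0.970), the last sharing 97.1% of its transcript with Apol9a. Hmox1, which encodes an enzyme that degrades heme, counted 14 and 9 in control input and 408 and 294 in DKO. For Cd44 they were Csf1 (0.991), Sp100 (0.989), Fmnl2 (0.988), Kctd14 (0.984) and Areg (0.980). Csf1, a growth factor of macrophages, counted 32 and 19 in control input and 248 and 192 in DKO. Areg, a member itself, was thus among the 5 genes nearest to Cd44.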

How the data were processed

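RNA was measured in input, J2 and K1 libraries of 2 control and 2 DKO mice. The files deposited by the authors hold raw counts of reads per gene, made without strand per the labels, from strand-specific, random-primed, ribosomal RNA-depleted libraries with molecular identifiers and read pairs of 150 bp. The submitters' processing notes name FastQC, STAR 2.7.10b, SAMtools 1.17, UMI-tools 1.1.4, HTSeq 2.0.2, DESeq2 1.40.1, edgeR 3.42.2 and deepTools 3.5.2 and the builds mm10 and GRCm38.p4, with no role or order, so whether copies made by amplification were removed is not given in the sources used here. Rows that name no gene entered neither the library totals nor the fits. They held reads outside genes (6.76% to 27% of listed reads), ambiguous reads (3.65% to 6.11%) and reads aligned to several places (5.54% to 46.7%).

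The members, gene lists and tests were chosen with earlier results of these data known. Ensembl identifiers without version matched GENCODE M21 (GRCm38) for 48144 of 48526 rows. The test was edgeR's quasi-likelihood test (version 4.0.16, R 4.3.3; TMM scaling, filterByExpr with a minimum of 10 counts, Benjamini-Hochberg over all genes tested, threshold 0.05). DKO was compared with control in separate fits of 4 libraries per kind. Pulldown against input and the difference of enrichment were fitted on the 8 libraries of an antibody with input. An exact permutation of 2 against 2 cannot go below p = 0.333, so none was used. CPM were scaled by TMM over 12 libraries. Folds against control libraries at 3 counts or fewer were given as bounds or ratios of counts with 95% intervals.

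Named genes were all 9 members, up to 3 per list with the largest input change at a mean of at least 50 counts, up to 3 per list called in both J2 and K1, and the 5 nearest in pattern to Anxa10 and to Cd44; 1 gene that the rule names is not reported here. Transcripts were compared with blastn 2.17.0+ (identity of 97% over 100 bases). Replicate libraries of a group differed by more than sampling noise (chi-square per degree of freedom 9.78 to 84.4). Libraries with the same replicate number and genotype come from the same animal per the labels, and their deviations from the group mean correlated at r = 0.208 to 0.494 over 16582 genes. Across genotypes a number is shared by unrelated animals (r from -0.0970 to 0.0261). Alternatives were DESeq2 size factors, no TMM scaling, no filter, DESeq2 1.42.0, 1 fit of all 12 libraries, a replicate block and each animal left out.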

Additional observations from a re-analysis of the deposited data

Results flagged for a closer look

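The 5 results here were singled out because, with TMM scaling, every control animal moved one way from input to pulldown and every DKO animal the opposite way. Without that scaling the fitted DKO values of Areg and Cd44 in K1 were -0.15 and -0.17, on the same side of 0 as in control. Each difference between the genotypes was tested as an interaction with edgeR, and none passed the threshold of adjusted p under 0.05. Ereg differed by -1.93 in K1 (adjusted p = 0.0506, or 0.00884 with the animal as a block) and by -1.85 in J2 (adjusted p = 0.123, or 0.0859 with the block). Il33 differed by -1.41 in J2 (adjusted p = 0.0944, or 0.0864 with the block). Areg differed by 1.22 in K1 (adjusted p = 0.160, or 0.0361 with the block). Cd44 differed by 0.61 in K1 (adjusted p = 0.256, or 0.174 with the block). All values are log2 differences, DKO minus control, of pulldown over input in 2 animals each.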

How the results depend on the processing

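With 2 animals per genotype, the counts of members called in the pulldowns depended on the setting. In input 8 members were called under each alternative that kept all animals. Since the input contrast chose the list, nothing is read from that. For DKO against control in J2 (4 members and 1609 genes), 7 members and 4273 genes were called without the filter, 2884 genes with DESeq2, and 8 members and 5993 genes in 1 fit of all 12 libraries. In input (5421 genes) that fit called 1675. For J2 against input in control (0 members), 3 were called without the filter and 1 with the replicate block, and in DKO (2 members) 0 without TMM scaling. For K1 against input in control (1 member), 2 were called without TMM scaling, 3 without the filter, 2 with DESeq2, 0 in the fit of all libraries and 4 with the replicate block. For the J2 difference of enrichment (0 members and 432 genes), 672 genes were called without TMM scaling, 3 members and 2453 genes without the filter, 1 member and 2018 genes with DESeq2, 899 genes in the fit of all libraries and 0 genes with the replicate block. For the K1 difference (0 members and 870 genes), 523 genes were called with DESeq2 size factors, 1 member and 1309 genes without TMM scaling, 3 members and 1763 genes without the filter, 1 member with DESeq2, 59 genes in the fit of all libraries, and 3 members and 1912 genes with the replicate block. The cause was not tested.

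Leaving out each animal in turn gave 3615 to 6227 genes in input, 0 to 7 members and 177 to 8635 genes in J2, and 4 to 8 members and 1150 to 5819 genes in K1, the lone library then being assumed to vary like the others. Against input it gave 0 to 2 members and 0 to 10140 genes for J2 in control, 0 to 3 members and 346 to 7790 genes for J2 in DKO, 0 to 4 members and 281 to 9191 genes for K1 in control, and 2 to 3 members and 3005 to 5970 genes for K1 in DKO. For the differences of enrichment it gave 0 to 3 members and 0 to 6990 genes in J2, and 0 to 2 members and 0 to 3803 genes in K1. Of the members' log2 fold changes under the alternatives, 686 kept their side of the threshold, 61 passed it newly and 39 no longer passed, with no called value reversed.

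Across genotypes a replicate number pairs no animals. With it as a block in DKO against control, Ereg in K1 lost its call (adjusted p = 0.0894), and Anxa10 (adjusted p = 2.37e-05) and Msln (adjusted p = 0.00690) in J2 gained one. Without TMM scaling the median log2 change of all genes moved to -0.13 in input and to -0.40 in K1, against 0.00 and -0.02 with it, and the share of called genes that were higher fell by 10.3 to 26.6 percentage points over the 9 comparisons. The share was 51.1% against 34.7% for J2 over input in control, 47.7% against 21.1% in DKO, 49.6% against 36.0% for K1 in control, 41.1% against 22.3% in DKO, 28.5% against 10.4% for the J2 difference and 25.1% against 13.1% for the K1 difference. Depth limits the DKO pulldowns most: the second DKO K1 library held 3 counts of Il1rn, 5 of Anxa1 and 9 of Msln.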
